A study of Arabidopsis thaliana with 6 samples.

Results

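The genes carried by the plastid and mitochondrial genomes of Arabidopsis thaliana were followed in whole seedlings of 2 genotypes, the mutant pkl-1, whose background the labels do not name, and wild type, which was Col-0. Both genotypes were 14 days old and had grown from surface-sterilised seed on half-strength Murashige and Skoog agar under continuous light. The pkl-1 seedlings carry a mutation in PICKLE (PKL), a nuclear gene whose product, an ATPase of the CHD3 family, remodels chromatin. Each genotype had 3 Affymetrix arrays of separate biological replicates, and the comparison asked which transcripts differ between the genotypes. The labels do not give how many seedlings made up a sample, and the level of PKL itself was not analysed here, so that the genotype labels were not checked against it. The members were the probe sets of 1 block of 150 consecutively numbered probe sets that the platform annotation pairs with 1 organelle gene and no nuclear locus. There were 81 of them among 22746 tested probe sets, each for a different gene: 69 for plastid genes and 12 for mitochondrial genes. The rest of the block consisted of 15 probe sets of nuclear genes, 9 that match several entries and 45 that are unnamed here.

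Plastids and mitochondria keep small genomes of bacterial origin. The plastid genome encodes core subunits of the photosynthetic complexes, the large subunit of the carbon-fixing enzyme Rubisco, and part of the machinery that expresses these genes, while the mitochondrial genome encodes subunits of the respiratory chain. Most other proteins of both organelles are encoded in the nucleus, among them the sigma factors and phage-type RNA polymerases that transcribe organelle genes and the proteins that splice, edit and stabilise their RNA. Many plastid genes are transcribed together in long units that are cut into shorter RNAs afterwards. A poly(A) tail marks organelle RNA of plants for decay, and the labels name only a standard procedure for labelling without saying how the RNA was primed. Signals of different probe sets are therefore given as signals, not as amounts of RNA.

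Values are log2 GCRMA signals, and a difference of 1 is 2-fold. Array medians lay between 5.06 and 5.09 in pkl-1 and between 5.03 and 5.13 in wild type. The plastid probe sets were bright: 54 of 69 had a mean among the top 10% of all tested probe sets. Of the mitochondrial probe sets 4 of 12 had a mean above the array median, and 3 of 12, with 1 of 69 plastid ones, had a mean below the 25th percentile of 2.14, where GCRMA leaves little spread and folds are compressed. At the bright end, with plastid means up to 13.30 and a highest signal of 13.69 on any array, differences can be compressed too. The nuclear green-tissue gene RCA (Rubisco activase) was bright in both genotypes (means of 13.20 in pkl-1, 13.24 in wild type). It does not stand for all such genes. LHCB4.2 (-0.50, pkl-1 minus wild type), PSBY (-0.28), PSAN (-0.28), PSBW (-0.23) and PSAE-1 (-0.15) were bright too, but lower in all pkl-1 arrays. Of these only LHCB4.2 passed the test described below. LHCB4.3 was the only positive 1 of 10 measured nuclear photosynthesis genes (0.53, overlapping arrays). The root gene PYK10 was bright (means of 11.96 in pkl-1, 11.95 in wild type). The root genes EXPA7 and EXPA18, however, lay below the array median (means over all arrays of 3.73 and 4.66). The seed gene OLEO3 was dim (means of 2.21 in pkl-1, 2.09 in wild type). The other 2 measured seed genes were dim too, and all 3 had positive differences. M17 was at 0.25 with overlapping arrays. M10 was higher in all pkl-1 arrays (means of 1.87 in pkl-1, 1.58 in wild type) but did not pass the test. In whole seedlings, fewer green cells, fewer genome copies per cell and less RNA per copy cannot be told apart.

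No plastid and no mitochondrial gene passed the test between pkl-1 and wild type. With limma and an adjusted p threshold of 0.05 over all tested probe sets, 0 of 69 plastid and 0 of 12 mitochondrial probe sets were changed, where 2.37% of all tested probe sets were (1.06% higher and 1.31% lower in pkl-1). At an unadjusted p under 0.05 there were 3 plastid probe sets and 1 mitochondrial one, against 14.9% of all tested probe sets. Among 1703 other probe sets at least as bright as the lower quartile of the plastid ones (9.43), 70 were changed. The differences of the plastid genes ran from -0.33 to 0.37 log2 units (median 0.06), and those of the mitochondrial genes from -0.10 to 0.58 (median 0.06); over all tested probe sets the median was 0.01. All pkl-1 arrays lay above or all below all wild-type arrays in 6 of 69 plastid and 2 of 12 mitochondrial genes, against 21.0% of all tested probe sets. Of these, psbC was higher in all pkl-1 arrays and psbE, psbD, atpH, ndhK and ndhJ were lower, while ccb452 and nad9 were higher. Over all tested probe sets 10.6% were higher in this way and 10.4% lower.

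The sizes that the data leave possible were limited, but for some genes they came close to 2-fold. The outermost bounds of the 95% intervals were -0.86 and 0.98 log2 units for plastid genes. For mitochondrial genes they were -0.44 and 0.95. The 95% interval of the difference, taken for each probe set alone, lay within 2-fold in both directions for all 69 plastid and all 12 mitochondrial genes, as it did for 87.2% of all tested probe sets. For 53 plastid and 7 mitochondrial genes it lay within 0.5 log2 units in both directions. The median standard error of a difference was 0.11 log2 units for plastid genes, 0.17 for mitochondrial genes and 0.16 over all tested probe sets. With 1 array left out, 65 to 68 of the plastid and 10 to 12 of the mitochondrial intervals were within 2-fold.

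**Figure D1:**
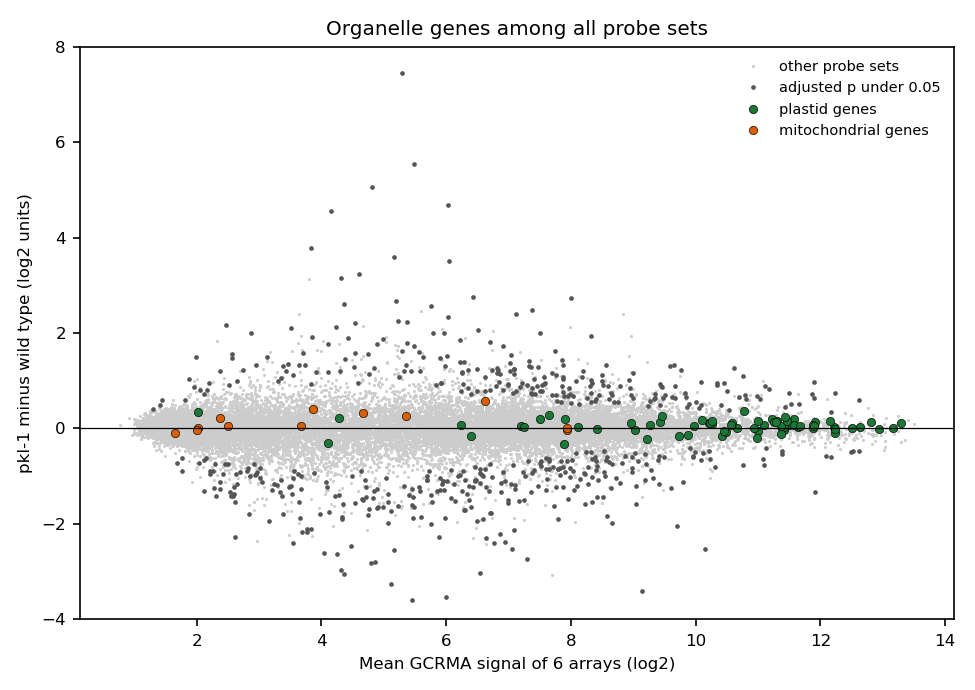
Mean GCRMA signal of the 6 arrays (x axis, log2) against the difference between pkl-1 and wild type (y axis, log2 units, pkl-1 minus wild type) for all tested probe sets. Plastid genes (green) sit at the bright end and mitochondrial genes (orange) mostly at low to middle signals, all of them between -0.33 and 0.58, while the probe sets with an adjusted p under 0.05 (dark grey) reach -3.59 and 7.44.

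Photosystem I genes showed no difference that passed. The complex moves electrons from plastocyanin to ferredoxin, and psaA and psaB encode the proteins that hold its reaction centre. The psaB signal was 12.92, 12.92 and 12.99 in the pkl-1 arrays and 12.97, 12.92 and 12.95 in the wild-type arrays, a difference of -0.01 ± 0.05 log2 units (SE; 95% interval -0.12 to 0.11; limma adjusted p = 0.978). The ranges of both genotypes overlapped and the interval was the narrowest among the plastid genes. The other members, which were psaA, psaC, psaI, psaJ and the assembly factor genes ycf3 and ycf4, ran from -0.08 to 0.25. The highest of these was ycf3, whose product helps to assemble photosystem I: its signals were 9.64, 9.69 and 9.45 in pkl-1 and 9.45, 9.23 and 9.34 in wild type (0.25 ± 0.10 SE, limma adjusted p = 0.301). The lowest pkl-1 array of ycf3 lay just below the highest wild-type array.

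Photosystem II, which splits water, had 15 measured genes, 10 with a positive and 5 with a negative difference, from -0.33 to 0.14. The psbE gene encodes a subunit of the cytochrome bound to the reaction centre. Its signals were 10.94, 10.80 and 10.89 in pkl-1 and 11.11, 11.08 and 11.04 in wild type, so that all pkl-1 arrays lay below all wild-type arrays (-0.20 ± 0.07 SE, 95% interval -0.36 to -0.04). After adjustment over all probe sets psbE did not pass (limma adjusted p = 0.223). The other cytochrome subunit gene, psbF, had signals of 12.57, 12.56 and 12.42 in pkl-1 and 12.51, 12.45 and 12.56 in wild type, which overlapped (0.01 ± 0.06 SE). The reaction-centre protein genes psbA and psbD were at -0.10 and -0.06, and the inner antenna genes psbB and psbC at 0.11 and 0.08. The genes of small subunits and the other photosystem II genes, psbT, psbF, psbJ, psbK, psbZ, psbH, psbM, psbI and psbL, ran from -0.02 to 0.14. The psbN gene, whose product takes part in building the complex, had the most negative difference of all plastid genes, and its signals varied widely within each genotype, with 8.15, 7.30 and 7.74 in pkl-1 and 8.29, 7.77 and 8.12 in wild type (-0.33 ± 0.23 SE, limma adjusted p = 0.575).

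Genes of the cytochrome b6f complex, which passes electrons from photosystem II to photosystem I, ran from -0.15 (petD) and -0.13 (petL) to 0.03 (petG), with petA, petN and petB between them. Without wild type replicate 2, petG was at -0.24 and petL at -0.28, and 2 of the 6 genes were positive (median -0.09). This was not particular to that array. Without pkl-1 replicate 2, and likewise without pkl-1 replicate 3, 2 of the 6 were positive as well (median -0.02 in each fit). The petB gene, for its cytochrome subunit, had signals of 12.59, 12.62 and 12.74 in pkl-1 and 12.63, 12.58 and 12.66 in wild type (0.03 ± 0.06 SE). Of the 6 measured genes of the plastid ATP synthase, 3 had a positive and 3 a negative difference, from -0.11 (atpH) to 0.20 (atpI), with atpA, atpE, atpF and atpB between them. Without wild type replicate 2, atpI had the most negative difference of this complex, at -0.20. The catalytic subunit gene atpB was the brightest of all plastid probe sets, at 13.27, 13.40 and 13.37 in pkl-1 and 13.24, 13.19 and 13.31 in wild type (0.10 ± 0.06 SE, limma adjusted p = 0.465). The rbcL gene of the large Rubisco subunit had signals of 11.09, 11.18 and 11.11 in pkl-1 and 10.95, 11.14 and 11.10 in wild type, which overlapped (0.07 ± 0.08 SE, 95% interval -0.11 to 0.24).

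The NDH complex returns electrons from ferredoxin to the plastoquinone pool in cyclic electron flow. Its 10 measured genes held 7 positive and 3 negative differences. The ndhK signals were 9.11, 9.09 and 9.10 in pkl-1 and 9.32, 9.47 and 9.20 in wild type, without overlap (-0.23 ± 0.10 SE, limma adjusted p = 0.314). Its neighbour ndhJ was also lower in all pkl-1 arrays, with 10.39, 10.38 and 10.25 in pkl-1 and 10.67, 10.42 and 10.44 in wild type (-0.17 ± 0.09 SE, limma adjusted p = 0.464). Neither passed the test. The ndhI gene was at 12.80, 12.93 and 12.91 in pkl-1 and 12.79, 12.62 and 12.81 in wild type (0.14 ± 0.07 SE). The ndhF gene had the largest difference of the group, 0.35 ± 0.21 (SE), from dim signals of 1.93, 2.45 and 2.199 in pkl-1 and 1.77, 1.53 and 2.23 in wild type that overlapped. The others, ndhA, ndhC, ndhD, ndhE, ndhG and ndhH, ran from -0.03 to 0.20.

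**Figure D2:**
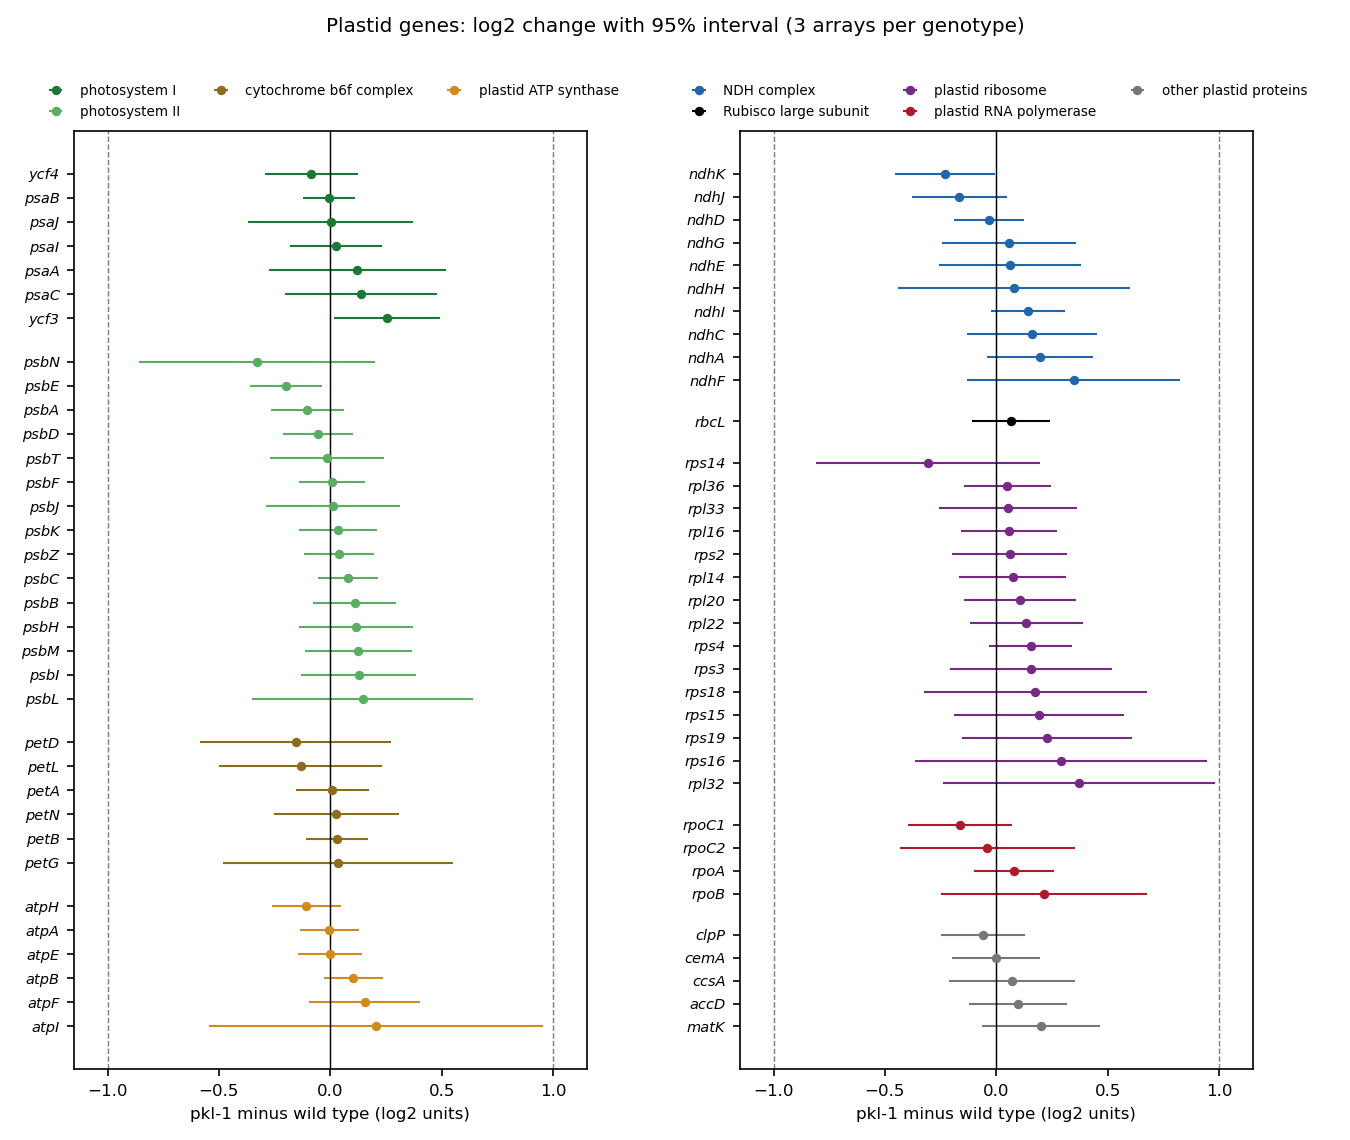
Difference between pkl-1 and wild type (x axis, log2 units, pkl-1 minus wild type) for the 69 plastid genes, grouped by the complex or process they serve; points are the differences, bars the 95% intervals from limma with 3 arrays per genotype, and dashed lines 2-fold in either direction. Every interval lies between the dashed lines, and all but those of psbE, ndhK and ycf3 include 0.

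Among the genes that serve expression of the plastid genome, the 4 subunit genes of the plastid's own RNA polymerase went both ways. The rpoA signals were 11.87, 12.02 and 11.86 in pkl-1 and 11.93, 11.73 and 11.85 in wild type (0.08 ± 0.08 SE). The rpoB signals were 4.19, 4.38 and 4.62 in pkl-1 and 3.97, 4.26 and 4.32 in wild type (0.21 ± 0.20 SE), and the rpoC1 signals 9.56, 9.71 and 9.67 in pkl-1 and 9.78, 9.97 and 9.68 in wild type (-0.16 ± 0.10 SE). Neither pair of ranges was apart, and rpoC2 was at -0.04. The other plastid proteins measured were ClpP (a protease subunit), AccD (fatty acid synthesis), MatK (a splicing factor), CcsA (cytochrome c assembly) and CemA (an envelope protein), with differences from -0.06 to 0.20. The brightest of these, matK, had signals of 11.63, 11.77 and 11.65 in pkl-1 and 11.65, 11.22 and 11.58 in wild type (0.20 ± 0.11 SE, limma adjusted p = 0.478).

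Of 15 genes for plastid ribosomal proteins 14 had a positive difference (median 0.13 log2 units), but without wild type replicate 2 this was 8 of 15 (median 0.01), and none passed the test in either case. The largest difference of any plastid gene was that of rpl32, at 10.83, 11.20 and 10.86 in pkl-1 and 11.02, 9.93 and 10.83 in wild type (0.37 ± 0.26 SE, limma adjusted p = 0.585). Wild type replicate 2 stood alone there, and the difference was 0.04 without it. The rps16 signals were 7.77, 7.92 and 7.68 in pkl-1 and 7.88, 6.77 and 7.85 in wild type, and the difference of 0.29 ± 0.28 (SE) was -0.07 without wild type replicate 2. The rps19 gene was at 11.56, 11.70 and 11.37 in pkl-1 and 11.59, 10.94 and 11.41 in wild type (0.23 ± 0.16 SE), and rps4 at 12.23, 12.25 and 12.19 in pkl-1 and 12.21, 11.92 and 12.09 in wild type (0.15 ± 0.08 SE). The negative one was rps14, at 4.08, 3.68 and 4.12 in pkl-1 and 4.55, 4.17 and 4.07 in wild type (-0.31 ± 0.22 SE), whose ranges overlapped. The other 10, rpl14, rpl16, rpl20, rpl22, rpl33, rpl36, rps2, rps3, rps15 and rps18, ran from 0.05 to 0.19.

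**Figure D3:**
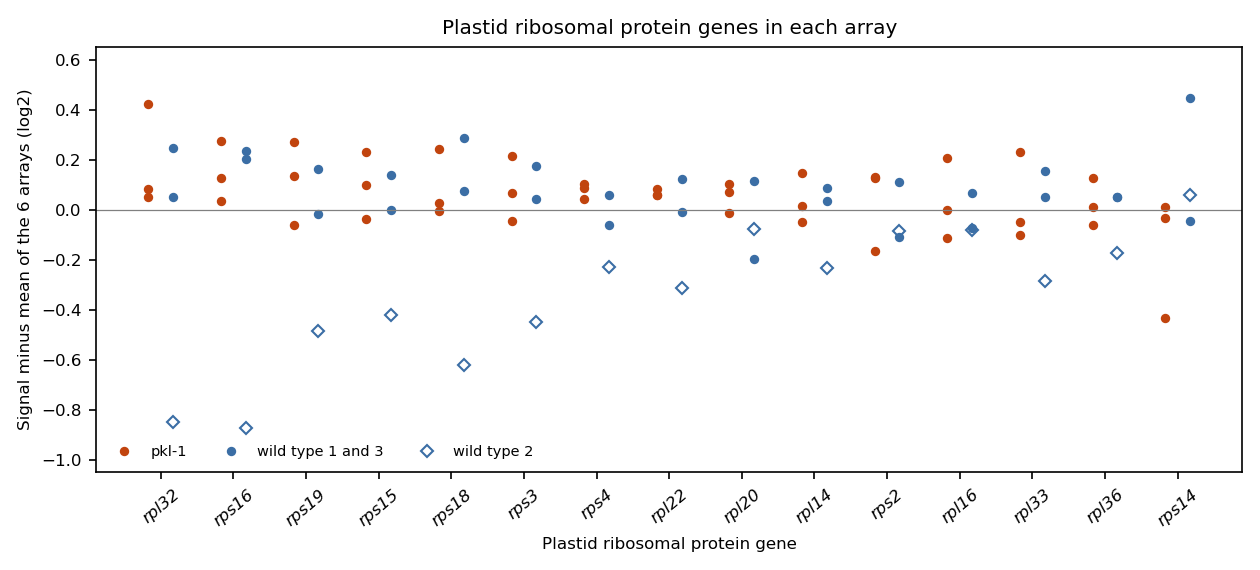
Signal of the 15 plastid ribosomal protein genes in each array (y axis, log2, minus the mean of the 6 arrays for that gene), ordered by the difference between pkl-1 and wild type; filled points are the pkl-1 arrays (left) and wild type replicates 1 and 3 (right), open diamonds wild type replicate 2. The diamonds are the lowest of the 6 arrays for 11 of the 15 genes.

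Wild type replicate 2 was the array that stood apart among the 69 plastid members. It was the lowest of the 6 arrays for 41 of 69 plastid genes, which is 59.4%, while it was lowest for 16.7% of all tested probe sets and for 18.7% of the 1703 other bright ones. Its signal minus the mean of the other 2 wild-type arrays had a median of -0.21 log2 units over plastid genes and of 0.01 over all tested probe sets. The shift was uneven: it passed -0.5 in 12 plastid genes, with atpI (6.59 against 8.04 and 7.56), rps16, rpl32 and petG (7.55 against 8.42 and 8.33) shifted most, and was 0.24 in the positive direction for rpoC1. Photosystem I and ribosomal protein genes had it as their lowest array in 5 of 7 and 11 of 15 cases. Among 8 further probe sets, which match both copies of 1 plastid gene, it was lowest for 3 and pkl-1 replicate 3 for 5.

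The balance of signs depended on this array. Over all 6 arrays 49 of 69 plastid genes had a positive difference, and without wild type replicate 2 there were 30 of 69, with a median of -0.02; leaving out any other array gave 46 to 55. Within photosystem I, 5 of 7 differences were positive with all arrays and 1 of 7 without it. No plastid gene passed the test in either fit. Of 16 control probe sets for the 3' end, middle and 5' end of actin, GAPDH and ubiquitin, 9 were lowest in wild type replicate 2, among them an actin 5' probe set (7.20, 7.10 and 7.18 in pkl-1, and 7.18, 6.82 and 7.26 in wild type) and a GAPDH 3' probe set (11.63, 11.80 and 11.52 in pkl-1, and 11.70, 11.31 and 11.60 in wild type). Their part in the plastid result was not tested. The array was lowest for 2 of 12 mitochondrial genes and for 2 of 10 nuclear photosynthesis genes.

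**Figure D4:**
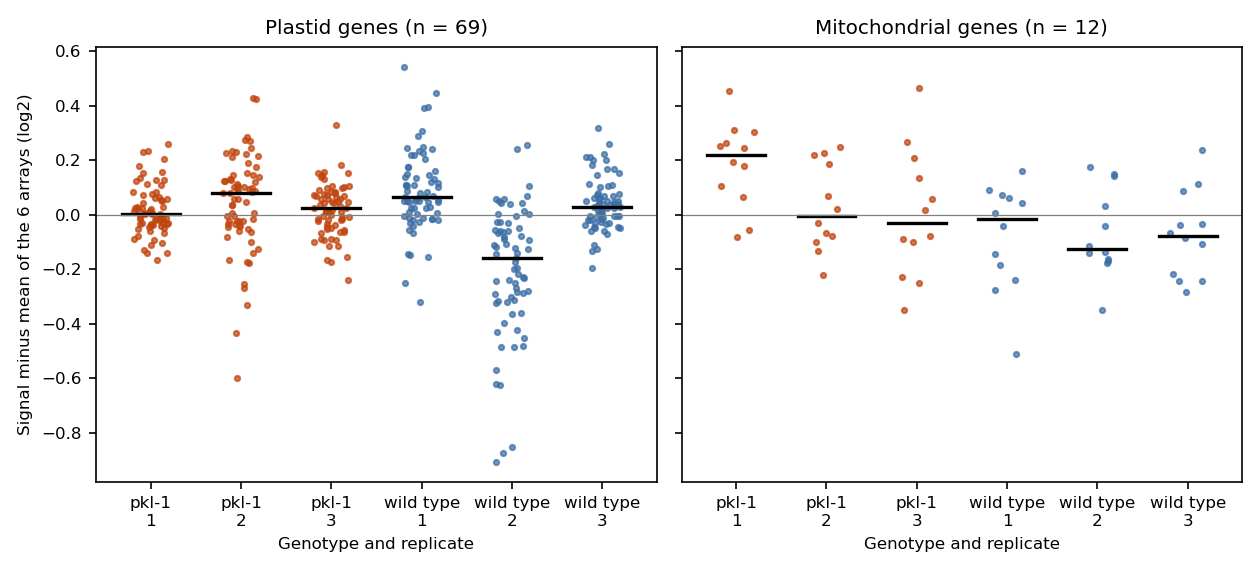
Signal of each plastid gene (left panel) and mitochondrial gene (right panel) in each array, minus the mean of the 6 arrays for that gene (y axis, log2); points are genes and bars the median of each array. For plastid genes the median of wild type replicate 2 is -0.16 and those of the other arrays lie between 0.00 and 0.08, while for mitochondrial genes pkl-1 replicate 1 is highest at 0.22.

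The signs within groups of genes transcribed together were read with all arrays and without wild type replicate 2. For these groups no other array was left out, so whether this array matters more than another was not tested. In 14 textbook transcription units with 53 of the plastid genes, set from general knowledge and in the gene order of the TAIR10.1 assembly, 11 units held both positive and negative differences and 3 held positive ones only, with several values near 0. Without wild type replicate 2, 9 units held both signs and 5 held negative differences only. These 5 were the units of petL, psaA, psaI and petA, psaJ, and psbE. In the psbE unit, psbE was at -0.20, psbF and psbJ at 0.01 and psbL at 0.14; without wild type replicate 2 all 4 were negative, from -0.20 to -0.02. In the ndhC unit, ndhK and ndhJ were lower in pkl-1 in all arrays while ndhC was at 0.16, with overlapping signals of 11.16, 11.59 and 11.40 in pkl-1 and 11.30, 11.04 and 11.35 in wild type. The ribosomal protein unit with rps19, rpl22, rps3, rpl16, rpl14, rpl36 and rpoA was the largest without a negative value, from 0.05 to 0.23. Without wild type replicate 2 its values ran from -0.03 to 0.04, with 4 of 7 positive. The median gap between 2 genes of a unit was 0.09 log2 units over 92 pairs, against 0.12 over all 2346 pairs of plastid genes. Across 64 pairs of neighbouring plastid genes the differences had a Pearson r of 0.16 and a Spearman rho of 0.07, and these pairs share the same arrays.

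The mitochondrial genes were described apart. Of 12, 9 had a positive and 3 a negative difference, and none passed. Without pkl-1 replicate 1, which was the highest array for 7 of the 12, there were 6 of each sign. The largest was ccb452, a gene for a haem ligation factor in the maturation of c-type cytochromes that is also known as ccmFC. Its signals were 6.80, 6.84 and 7.09 in pkl-1 and 6.11, 6.49 and 6.41 in wild type, so that all pkl-1 arrays lay above all wild-type arrays (0.58 ± 0.16 SE, which is 1.49-fold; 95% interval 0.20 to 0.95). The limma adjusted p was 0.134, and it lay between 0.207 and 0.328 with 1 array left out. Its probe set carries the suffix of sets that match more than 1 transcript, as do those of matR, orfX and nad6.

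Of the other cytochrome c maturation genes, ccb382 was measured at middle signals of 8.20, 7.72 and 7.84 in pkl-1 and 8.10, 8.08 and 7.70 in wild type (-0.04 ± 0.17 SE). The remaining pair was dim: ccb203 was at 1.76, 1.63 and 1.43 in pkl-1 and 1.66, 1.83 and 1.62 in wild type, and ccb206 at 2.32, 2.09 and 1.67 in pkl-1 and 1.88, 1.90 and 2.26 in wild type. Their differences lay near 0, at -0.10 for ccb203, -0.04 for ccb382 and 0.02 for ccb206.

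All 5 measured genes of complex I, which takes electrons from NADH, had positive differences (median 0.22), but without pkl-1 replicate 1 this was 3 of 5 and without wild type replicate 3 it was 4 of 5. The nad9 signals were 4.91, 4.85 and 4.72 in pkl-1 and 4.39, 4.52 and 4.597 in wild type, without overlap (0.32 ± 0.17 SE, limma adjusted p = 0.440). Those of nad7 were 4.31, 4.11 and 3.78 in pkl-1 and 3.62, 3.51 and 3.82 in wild type (0.42 ± 0.20 SE, limma adjusted p = 0.406), with 1 pkl-1 array inside the wild-type range. In contrast, nad4 overlapped closely, with 7.996, 7.86 and 7.95 in pkl-1 and 7.99, 7.96 and 7.82 in wild type (0.01 ± 0.11 SE). The nad6 gene was at 2.57, 2.302 and 2.59 in pkl-1 and 2.47, 2.21 and 2.14 in wild type, and nad4L had a difference of 0.06 ± 0.17 (SE) at similarly low signals.

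Among the remaining mitochondrial genes, cox2, for a subunit of cytochrome c oxidase, was at 3.59, 3.58 and 3.94 in pkl-1 and 3.63, 3.51 and 3.79 in wild type (0.06 ± 0.19 SE). The orfX gene, also known as mttB and related to a protein transporter of bacteria, was at 5.61, 5.58 and 5.27 in pkl-1 and 5.43, 5.18 and 5.08 in wild type (0.26 ± 0.19 SE). The maturase gene matR, whose product acts in splicing, was dim at 1.95, 1.87 and 2.14 in pkl-1 and 1.82, 2.15 and 2.09 in wild type. Both genes had overlapping ranges.

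**Figure D5:**
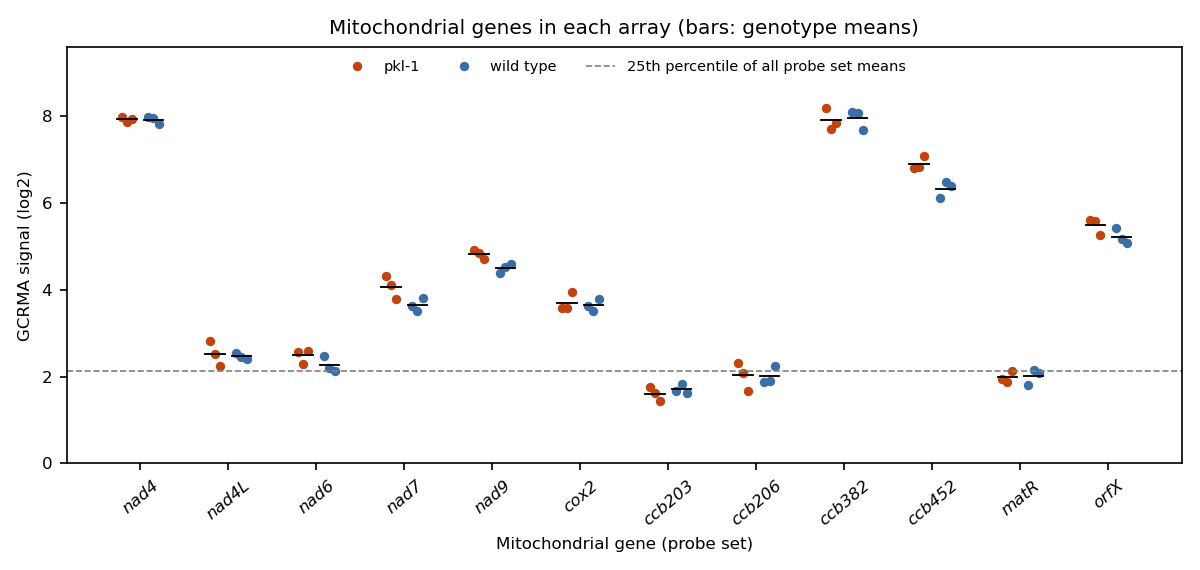
GCRMA signal (y axis, log2) of the 12 mitochondrial genes in each array, with pkl-1 left and wild type right for each gene; points are arrays, bars the mean of 3 arrays, and the dashed line the 25th percentile of all probe set means (2.14). In ccb452 and nad9 the 3 pkl-1 points lie above the 3 wild-type points, and the means of ccb203, ccb206 and matR lie below the dashed line.

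Nuclear genes that work with the organelle genes were counted in the same fit. Most of each list went unmatched: 10 of 56 photosynthesis genes, 12 of 81 genes for organelle transcription and RNA processing and 13 of 50 respiration genes were matched to a probe set. Matching was by exact symbol and only to probe sets of 1 gene. Genes listed under another symbol or on a shared probe set were therefore missed. Of the 10 measured nuclear photosynthesis genes 9 had a negative difference (median -0.13), and the exception was LHCB4.3 at 0.53, with overlapping arrays. LHCB4.1 was at -0.11, also with overlapping arrays. At an unadjusted limma p under 0.05 there were 6 of the 10, LHCB4.3 among them, against 14.9% of all tested probe sets. In 5 of the 10 all pkl-1 arrays lay below all wild-type arrays, against 10.4% of all tested probe sets. The gene LHCB4.2, for a light-harvesting protein bound to photosystem II, fell, at 12.38, 12.29 and 12.03 in pkl-1 and 12.73, 12.72 and 12.76 in wild type (-0.50 ± 0.09 SE, limma adjusted p = 0.0355). It no longer passed when pkl-1 replicate 2 or any 1 of the wild-type arrays was left out (limma adjusted p 0.0753 to 0.122) and without a mean-dependent prior (0.111). PSBY and PSAN, for subunits of photosystem II and photosystem I, were lower in all pkl-1 arrays without passing (-0.28 ± 0.06 SE each, limma adjusted p = 0.0690 and 0.0729). Without wild type replicate 2, on which the balance of plastid signs depended, the nuclear median was still -0.13. Whether nuclear and plastid photosynthesis genes differ from each other was not tested.

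The 12 measured genes for organelle RNA processing included no sigma factor or phage-type RNA polymerase gene. Of the 12, 10 had a positive difference (median 0.18), and without pkl-1 replicate 2 there were 7 (median 0.08). Most were dim, with 2 of 12 means above the array median. By limma 0 were changed, against 2.37% of all tested probe sets, and 1 had an unadjusted p under 0.05, against 14.9%. That gene was OTP81, an RNA editing factor of plastids, at 5.16, 4.99 and 5.96 in pkl-1 and 4.37, 4.50 and 4.22 in wild type (1.01 ± 0.27 SE, limma adjusted p = 0.123). The brightest members, CRR21 and LPA66, which also edit plastid RNA, were at -0.12 ± 0.24 and 0.16 ± 0.23 (SE), with overlapping arrays. Of 13 measured nuclear genes of mitochondrial respiration, 9 had a negative difference (median -0.06), and without pkl-1 replicate 1 there were 7. All pkl-1 arrays lay below all wild-type arrays in 4 and above them in 1, against 10.4% and 10.6% of all tested probe sets. By limma 0 of the 13 were changed, against 2.37% of all tested probe sets, and 4 had an unadjusted p under 0.05, against 14.9%. Of these 4, SDH1-2, for the flavoprotein of complex II, was at 2.45, 2.52 and 2.99 in pkl-1 and 3.66, 3.56 and 3.37 in wild type (-0.88 ± 0.20 SE, limma adjusted p = 0.0702). The cytochrome c gene CYTC-2 was at -0.46 and SDH2-1, also of complex II, at -0.27, while NDB1, an NAD(P)H dehydrogenase gene, was at 0.35. The brightest members of this list were MPPBETA, a subunit of the protease that trims imported proteins, at -0.06 ± 0.10 (SE), and CYTC-1, the other cytochrome c gene, at -0.10 ± 0.06 (SE). CYTC-1 lay lower in all pkl-1 arrays, at 10.78, 10.78 and 10.77, against 10.84, 10.86 and 10.91 in wild type.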

How the data were processed

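Per the submitters' processing notes the authors made the deposited log2 values, 1 per probe set and array, with GCRMA, its version and annotation not given in the sources used here. The log2 scale follows from the range of the values. The 64 control probe sets were left out, and 22746 were tested with limma 3.58.1 in R 4.3.3 (a 2-sided moderated test whose prior variance depends on the mean signal, pkl-1 minus wild type), with Benjamini-Hochberg adjustment over all of them and no filter on signal. Intervals are 95% ones from this fit, unadjusted. The code was tested on simulated data. Arrays have no read depth; their number, 3 per genotype, limits the precision. Plastid members were matched to the TAIR10.1 gene table by gene ID (69 of 69) and 7 of 12 mitochondrial ones by symbol; the other 5 carry older names of known mitochondrial genes. The members and lists were chosen with earlier results of these data known. The named genes are members that pass, the 6 largest differences of each sign per genome, the brightest of each role, and of each nuclear list up to 2 changed members per direction or its 2 brightest; other genes were named after their values were seen. Plots used matplotlib 3.10.9 and Python 3.11.15.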

Additional observations from a re-analysis of the deposited data

How the results depend on the processing

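The counts of 0 changed plastid and 0 changed mitochondrial probe sets were the same in all 13 other fits (no mean-dependent prior, robust prior, quantile normalization, median centring, a filter on dim probe sets, array weights, replicate block and 6 fits without 1 array), at an adjusted p under 0.01, and with 1 probe set per gene, which is the set itself. With the replicate number as a block, 1518 of all probe sets were changed, but 0 plastid (smallest adjusted p 0.110) and 0 mitochondrial ones (0.0521, ccb452), with 4 of 10 nuclear photosynthesis genes in place of 1 and 1 of 13 nuclear respiration genes in place of 0. The labels give equal numbers no shared batch, and for that reason the numbers were not taken as pairs in the main fit. Their deviations from genotype means still correlated over all probe sets at 0.49 for replicate 1 and 0.58 for replicate 3. For replicate 2 the correlation was -0.02. Whether equal numbers share a batch was not tested. The median mitochondrial difference was 0.22 with the filter, which drops 3 dim genes, and 0.041 to 0.18 with 1 array left out; the plastid one was -0.025 to 0.11. Of 40 named genes 12 changed sign somewhere, none of them past the threshold: psaB was at 0.053 under quantile normalization, and with 1 array left out the ranges were -0.030 to 0.0087 for psaB, -0.073 to 0.48 for rps16, -0.18 to 0.061 for ccb382, -0.13 to 0.032 for matR, -0.060 to 0.13 for cox2, -0.015 to 0.058 for petB, -0.042 to 0.046 for nad4, -0.020 to 0.056 for psbF, -0.11 to 0.020 for MPPBETA, -0.34 to 0.067 for CRR21, -0.071 to 0.068 for PYK10 and -0.016 to 0.36 for OLEO3. The cause was not tested. The interval counts under these alternatives and the values of transcription units without wild type replicate 2 were chosen after seeing the data.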

Other observations

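Apart from the members, 8 probe sets of the same block match both copies of 1 plastid gene, as genes of the inverted repeat do. Their differences ran from -0.44 to 0.06 log2 units with a median of 0.01, and 0 were changed by limma, also at an unadjusted p under 0.05. Wild type replicate 2 was the lowest array for 3 of these 8 and pkl-1 replicate 3 for the other 5. Of 5 probe sets of the block with nuclear loci of the AT2G07 series on chromosome 2, where the nucleus holds a copy of mitochondrial DNA, 0 were changed by limma and 1 had an unadjusted p under 0.05, with differences from -0.18 to 0.52. The 45 probe sets of the block that are unnamed here ran from -1.60 to 0.56, with 0 changed by limma and 4 at an unadjusted p under 0.05. Over all tested probe sets 2.37% were changed by limma and 14.9% had an unadjusted p under 0.05.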
